A study of Mus musculus with 6 samples.

Results

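The genes described here are Neurog3 and 8 others used as marks of endocrine progenitors or of beta cells that have lost their mature state: Fev, Sox4, Sox9, Aldh1a3, Serpina7, Gast, Cck and Cd24a. They were chosen by name, and every non-control probe that the array files assign to one of these names was taken, which gave 9 of 31829 gene names and 11 of 39429 probes. The samples were islets isolated from 6-week-old male mice, measured on single-colour Agilent arrays. In the 3 mutant samples the genotype was Nkx6.1fl/-;Pdx1-CreERTM, and in the 3 control samples it was Nkx6.1fl/+;Pdx1-CreERTM, all on mixed backgrounds (FVB/N with C57Bl/6J for the floxed line, Cd1 with C57Bl/6J for the Cre line). Both groups carried the recombinase and a floxed allele, and both received tamoxifen in corn oil 4 times from the age of 4 weeks, at 2 mg per 25 g of body weight. RNA of 2 pancreata went into each sample. Mutants thus differed from controls by a null allele present before tamoxifen, as well as by the floxed allele as the only other copy. The recombinase is driven by the Pdx1 promoter, which is active in adult beta cells. In these bulk samples, fewer cells of a type and less RNA per cell cannot be told apart.

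Neurog3 is a basic helix-loop-helix transcription factor that is switched on briefly in progenitors of the embryonic pancreas and starts the endocrine programme, with Notch signalling holding it back. Mature beta cells carry little of it, and its return, together with the retinaldehyde dehydrogenase Aldh1a3, is known from mouse models in which beta cells dedifferentiate under metabolic stress. Nkx6-1 is a homeodomain factor that keeps beta cell identity in the adult. Setting mutant islets against control islets gives the genes whose levels differ between the 2 genotypes, and direct dependence on Nkx6-1 was not tested.

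Sequences before the transcription start are shown for 4 of these genes, of which Neurog3 and Serpina7 passed the test in mutant islets, Gast had a difference of similar size that did not pass, and Sox4 lay lower. They are the 250 bases upstream of the start in the RefSeq promoter table (GRCm38.p6), written 5′ to 3′ on the strand of the gene, and the first of 2 listed windows was used for Serpina7. Capitals mark the letters ATTA or their reverse complement, the core of many homeodomain motifs. The windows lie at chr10:62132840-62133089 (plus strand) for Neurog3, chrX:139085237-139085486 (minus strand) for Serpina7, chr11:100334157-100334406 (plus strand) for Gast and chr13:28953700-28953949 (minus strand) for Sox4.
Neurog3: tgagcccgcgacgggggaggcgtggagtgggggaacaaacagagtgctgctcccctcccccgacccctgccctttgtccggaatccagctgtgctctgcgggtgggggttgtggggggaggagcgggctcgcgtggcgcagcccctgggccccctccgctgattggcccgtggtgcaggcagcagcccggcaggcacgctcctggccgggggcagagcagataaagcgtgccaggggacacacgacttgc
Serpina7: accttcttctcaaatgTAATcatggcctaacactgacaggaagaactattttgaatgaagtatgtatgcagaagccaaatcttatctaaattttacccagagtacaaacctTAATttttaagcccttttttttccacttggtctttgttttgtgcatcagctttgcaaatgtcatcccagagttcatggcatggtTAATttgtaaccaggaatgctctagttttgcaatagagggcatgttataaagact
Gast: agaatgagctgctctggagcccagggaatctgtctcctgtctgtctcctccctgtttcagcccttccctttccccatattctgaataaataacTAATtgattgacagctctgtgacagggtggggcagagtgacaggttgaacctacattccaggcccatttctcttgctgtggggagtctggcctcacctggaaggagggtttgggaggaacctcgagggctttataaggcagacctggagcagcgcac
Sox4: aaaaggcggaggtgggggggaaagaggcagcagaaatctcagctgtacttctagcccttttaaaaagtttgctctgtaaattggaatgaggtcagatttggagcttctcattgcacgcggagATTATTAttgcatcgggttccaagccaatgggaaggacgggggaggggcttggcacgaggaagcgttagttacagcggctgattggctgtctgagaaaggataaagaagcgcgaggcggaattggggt

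Motifs were searched on both strands. The first was ATTA. The second, TTAATT, holds a match of the first on its other strand. The last was CANNTG, the E-box read by basic helix-loop-helix factors such as Neurog3. ATTA occurred 0 times in the Neurog3 window, 3 times in Serpina7, 1 time in Gast and 2 times in Sox4, and 54.9% of all 32851 windows of this length in the table held it. TTAATT occurred 2 times in Serpina7 and 0 times in the other windows printed, against 10.4% of all windows. CANNTG occurred 3 times in Serpina7 and 1 time each in Neurog3, Gast and Sox4, and 66.2% of all windows held it. The Neurog3 window was rich in G and C (71.2%, above all but a small share of windows, at percentile 92.7), and the Serpina7 window was poor in them (36.0%, percentile 6.2). The table also gave windows for Fev, with 2, 2 and 0 matches of the motifs in the same order, and for Cck, with 0, 0 and 3, so that 6 of the 9 genes had one.

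The array probes are 60 bases long, with positions on mm9 as the array files give them. Neurog3 was read at chr10:61597452-61597511 (plus strand), Fev at chr1:74928260-74928319 (minus), Sox9 at chr11:112648809-112648868 (plus), Aldh1a3 at chr7:73535785-73535844 (minus), Cck at chr9:121398943-121399002 (minus) and Cd24a at chr10:43303706-43303765 (plus). For 3 probes that read through at least 1 frame without a stop codon and lie in coding sequence, the sequence is given to show what the array measured. The Gast probe, at chr11:100197806-100197865 (plus), lies in the start of the gastrin precursor. The Serpina7 probe, at chrX:135615848-135616502 (minus), spans 655 bases of genome and so crosses an intron, which means it matches spliced RNA. The Sox4 probe at chr13:29044482-29044541 (minus) is 1 of 3 probes of that gene and lies in the part that codes for its DNA-binding HMG box.
Gast: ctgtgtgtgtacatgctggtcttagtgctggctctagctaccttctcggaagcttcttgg
Serpina7: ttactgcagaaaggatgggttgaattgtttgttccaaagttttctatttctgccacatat
Sox4: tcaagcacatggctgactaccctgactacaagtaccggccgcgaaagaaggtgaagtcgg

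Across the series, the share of probes well above background was 63.85% to 74.43% on mutant arrays and 73.44% to 76.28% on control arrays, with mutant arrays A and B the lowest. Mutants B and C were on slide 1 together with control A, and mutant A was on slide 2 together with controls B and C. All 11 beta cell markers were well above background on all 6 arrays, and so were 28 of 29 markers of acinar cells, the enzyme-producing cells around islets (the other, Try5, had no value on control A, where its spot was flagged as an outlier). Nkx6-1 itself had normalized log2 signals of 4.38, 4.13 and 4.52 on mutant arrays A, B and C, against 4.87, 4.92 and 4.72 on control arrays A, B and C. All mutant arrays lay below all control arrays, with a difference of -0.49 (SE 0.14) that did not pass the test (adjusted p = 0.126). The labels do not say which part of the gene is floxed, so it is not known whether the probe lies within it. Values here and below are log2 of the background-corrected signal relative to the 75th percentile of the same array, and differences are mutant minus control. A gene was called at an adjusted p under 0.05 over all 22776 gene names tested (limma, two-sided, Benjamini-Hochberg).

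Of the 9 genes, Neurog3 and Serpina7 rose in mutant islets and 0 fell. Over all gene names tested 587 were called, or 2.58%, with 1.38% higher and 1.19% lower (315 and 272, but 302 and 101 without a filter on dim probes). All 9 genes were well above background on all 6 arrays and none was saturated, so each had a measured value in both groups and passed the filter on dim probes. The median difference of the 9 was 0.79, against -0.033 over all genes tested, and 7 of the 9 differences were positive. Mutant arrays lay wholly above control arrays for 6 of the 9 (Neurog3, Serpina7, Aldh1a3, Gast, Fev and Cd24a), which 11.7% of all genes tested did, and wholly below them for Sox4, which 14.6% did (26.4% in either direction). The arrays of the 2 groups overlapped for Sox9 and Cck. The 9 genes were chosen with earlier results of these data known, so these shares describe them and do not test the set.

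**Figure D1:**
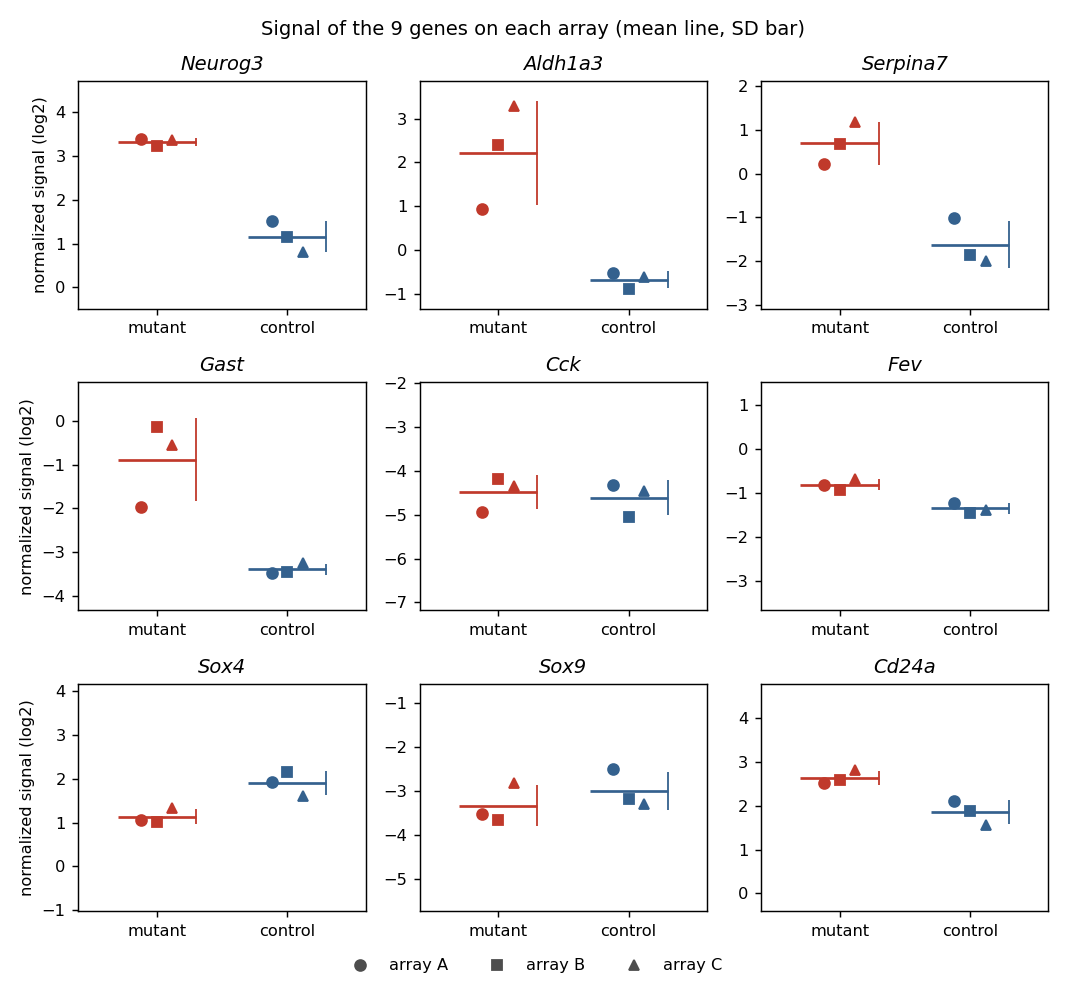
Normalized log2 signal of each of the 9 genes (vertical axis, each panel spanning the same number of log2 units) on the 3 mutant arrays at the left and the 3 control arrays at the right, with a line at the group mean, a bar of 1 SD, and marker shapes for arrays A, B and C. Neurog3 is tight in mutants (3.22 to 3.39) and above all controls (0.80 to 1.52), while Aldh1a3 spreads from 0.93 to 3.29 in mutants.

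Neurog3, the factor that starts endocrine differentiation, read 3.39, 3.22 and 3.37 on mutant arrays A, B and C, against 1.52, 1.15 and 0.80 on control arrays A, B and C. Every mutant array was above every control array, and the mutants lay within 0.17 of each other while controls spanned 0.71. The mean was 3.33 ± 0.093 in mutants and 1.16 ± 0.36 in controls (SD, n = 3 each), a difference of 2.17 (SE 0.19, 95% interval 1.69 to 2.64), or 4.49-fold (adjusted p = 0.0150, limma). By p it ranked 43 among the 22776 gene names. The background-corrected signals before any scaling were 24110, 16300 and 15980 on mutant arrays and 5197, 5223 and 4315 on control arrays, so Neurog3 was not a dim gene in either group. The difference was 1.77 among arrays of slide 1 and 2.41 among those of slide 2, and a slide block gave 2.09 (adjusted p = 0.0223). The call was lost when mutant B (adjusted p = 0.0675), control B (0.0778) or control C (0.0534) was left out, with differences of 2.22, 2.16 and 1.99.

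Fev is an ETS-family transcription factor of serotonin neurons that also marks endocrine progenitors downstream of Neurog3. It read -0.83, -0.92 and -0.67 on mutant arrays A, B and C, against -1.23, -1.45 and -1.38 on control arrays A, B and C. The groups did not overlap, and both were tight. The mean was -0.81 ± 0.13 in mutants and -1.35 ± 0.12 in controls (SD, n = 3 each), a difference of 0.55 (95% interval 0.26 to 0.84), or 1.46-fold, which did not pass (adjusted p = 0.0784).

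Sox4 is an HMG-box factor that acts in endocrine differentiation beside Neurog3, and Sox9 is an HMG-box factor of multipotent pancreatic progenitors and of adult ducts. Sox4 was the single gene of the set whose mutant arrays lay wholly below the controls, with 1.06, 1.02 and 1.34 on mutant arrays and 1.94, 2.17 and 1.61 on control arrays A, B and C. The difference of -0.77 (95% interval -1.20 to -0.33) did not pass (adjusted p = 0.0866). The array holds 3 probes of Sox4, and the groups did not overlap on any of them. The brightest probe is the one just given, at chr13:29040826-29040885. In the fit over 28362 probes, of which 2.83% were called, the probe at chr13:29042856-29042915 differed by -0.77 (adjusted p = 0.0805). The HMG-box probe printed above read -2.66, -3.08 and -2.78 in mutants and -1.72, -1.70 and -2.20 in controls, a difference of -0.97 (adjusted p = 0.0591). The 3 probes thus agreed in sign and nearly in size, and none passed.

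Sox9 was measured by a probe printed 10 times on each array, and 1 spot on control B was flagged as an outlier and left out. It read -3.52, -3.67 and -2.81 on mutant arrays A, B and C, against -2.50, -3.19 and -3.30 on control arrays A, B and C. The groups overlapped, since mutant C was above control B and control C. The repeat spots of an array had SDs of 0.0856 to 0.21 in mutants and 0.0783 to 0.142 in controls, below the SD between samples of 0.46 in mutants and 0.43 in controls. The difference of -0.34 had a 95% interval of -1.09 to 0.41 (adjusted p = 0.572).

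Aldh1a3, which makes retinoic acid from retinaldehyde, had the largest difference of the 9 genes and did not pass. It read 0.93, 2.40 and 3.29 on mutant arrays A, B and C, against -0.52, -0.88 and -0.62 on control arrays A, B and C. The controls lay close together, the mutants were far apart, and the lowest mutant was above all controls. The mean was 2.21 ± 1.19 in mutants and -0.67 ± 0.18 in controls (SD, n = 3 each), a difference of 2.88 (SE 0.57, 95% interval 1.49 to 4.27), or 7.37-fold (adjusted p = 0.0632). Within slide 1, which held mutants B and C, the difference was 3.37, and within slide 2, which held mutant A, it was 1.68. Without mutant A it was 3.52 and passed (adjusted p = 0.0252). That was the single pass in 6 fits with an array left out, where the adjusted p reached 0.211.

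Serpina7 encodes thyroxine-binding globulin, a secreted carrier of thyroid hormone known from liver. It read 0.22, 0.67 and 1.18 on mutant arrays A, B and C, against -1.0, -1.86 and -1.99 on control arrays A, B and C. The groups did not overlap and had a similar spread. The mean was 0.69 ± 0.48 in mutants and -1.62 ± 0.54 in controls (SD, n = 3 each), a difference of 2.31 (SE 0.35, 95% interval 1.46 to 3.16), or 4.96-fold (adjusted p = 0.0376). Slide 1 gave 1.93 and slide 2 gave 2.15, and a slide block 2.04 (adjusted p = 0.0192). The call held in 1 of 6 fits with an array left out, the one without control A (adjusted p = 0.0392), and was lost without mutant A, B or C (0.0536, 0.138 and 0.0811) and without control B or C (0.143 and 0.153).

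Gast encodes gastrin, a peptide hormone that the embryonic pancreas makes and the adult stomach secretes, and Cck the related hormone cholecystokinin. Gast read -1.96, -0.14 and -0.56 on mutant arrays A, B and C, against -3.48, -3.44 and -3.26 on control arrays A, B and C. The controls lay within 0.22 of each other, and mutant A, the lowest mutant, was still above them. The mean was -0.88 ± 0.95 in mutants and -3.39 ± 0.12 in controls (SD, n = 3 each), a difference of 2.51 (SE 0.46, 95% interval 1.39 to 3.63), or 5.69-fold, just short of the threshold (adjusted p = 0.0535). Slide 1 gave 3.13 and slide 2 gave 1.39, and without mutant A it was 3.04 and passed (adjusted p = 0.0111). Of 6 fits with an array left out, only 1 passed, and the adjusted p reached 0.185.

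Cck was near the same level in both groups. It read -4.93, -4.18 and -4.33 on mutant arrays and -4.31, -5.06 and -4.46 on control arrays A, B and C. The groups overlapped, and the difference of 0.13 had a 95% interval of -0.55 to 0.80 (adjusted p = 0.819). The interval for Cck lies wholly below that for Gast.

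Cd24a encodes a small glycoprotein of the cell surface used to sort progenitor cells. It read 2.52, 2.58 and 2.82 on mutant arrays A, B and C, against 2.12, 1.89 and 1.56 on control arrays A, B and C. The groups did not overlap, with the lowest mutant close above the highest control. The mean was 2.64 ± 0.16 in mutants and 1.86 ± 0.28 in controls (SD, n = 3 each), a difference of 0.79 (95% interval 0.36 to 1.21), or 1.72-fold, which did not pass (adjusted p = 0.0827).

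**Figure D2:**
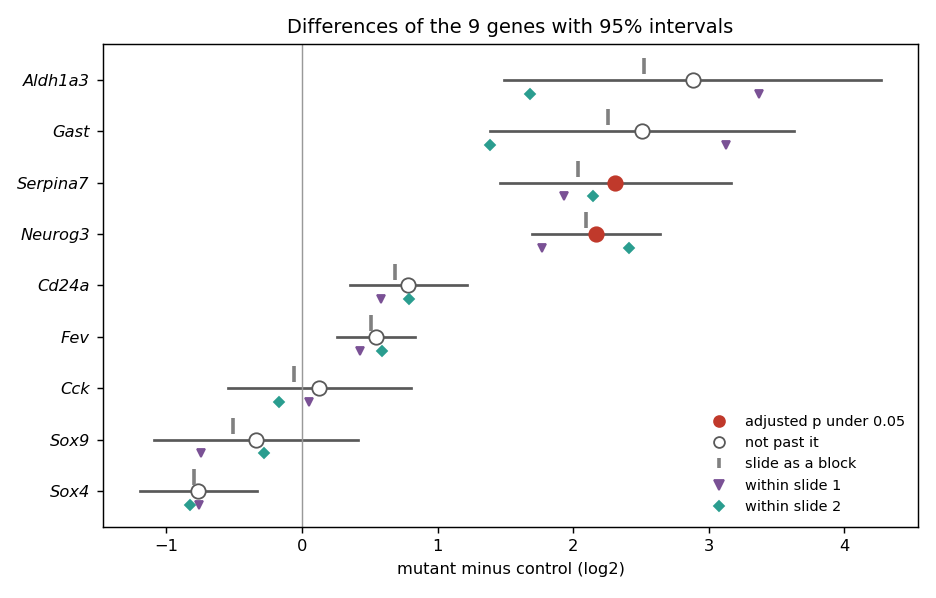
Mutant minus control difference of each gene on the log2 scale (horizontal axis), with its 95% interval as a line, filled circles for the 2 genes past the adjusted p threshold, ticks for the fit with slide as a block, and small symbols for the differences within slide 1 and slide 2. The intervals of Neurog3, Serpina7, Gast and Aldh1a3 start above 1, and those of Cck and Sox9 span 0.

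The genes with a difference over 2 did not share one pattern over the mutant arrays. Relative to its control mean, Neurog3 was at 2.23, 2.06 and 2.21 in mutants A, B and C, and Serpina7 at 1.84, 2.29 and 2.80. Aldh1a3 was at 1.61, 3.08 and 3.96, and Gast at 1.43, 3.25 and 2.84. Mutant A was thus the lowest mutant for Serpina7, Aldh1a3 and Gast but the highest for Neurog3.

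Acinar markers also differed between the mutant arrays. The mean of the 28 markers with a value on every array, relative to controls, was -0.82, 0.96 and 1.95 on mutant arrays A, B and C, against -0.26, -0.084 and 0.34 on control arrays A, B and C. Their summed level, in multiples of the 75th percentile of the array, ran from 1491 to 7276 in mutants and from 2254 to 2954 in controls. Of all 29 tested, none was dim on all arrays, 0 were called in either direction, and all 29 differences were positive (median 0.64). The fit with the acinar mean as a covariate called 144 genes in all, against 587 without it. In that fit the difference was 2.22 for Neurog3 (adjusted p = 0.0409) and 2.12 for Gast (0.0681). It was 2.13 for Serpina7, which was then not called (0.0814), and 2.32 for Aldh1a3, which was then called (0.0358). Mutant A had the lowest acinar level of all 6 arrays and was above every control for each of these 4 genes. Over mutants A, B and C, Serpina7 and Aldh1a3 rose in the order of the acinar mean, and Neurog3 and Gast did not. The part of acinar RNA in these differences was not tested beyond the covariate.

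**Figure D3:**
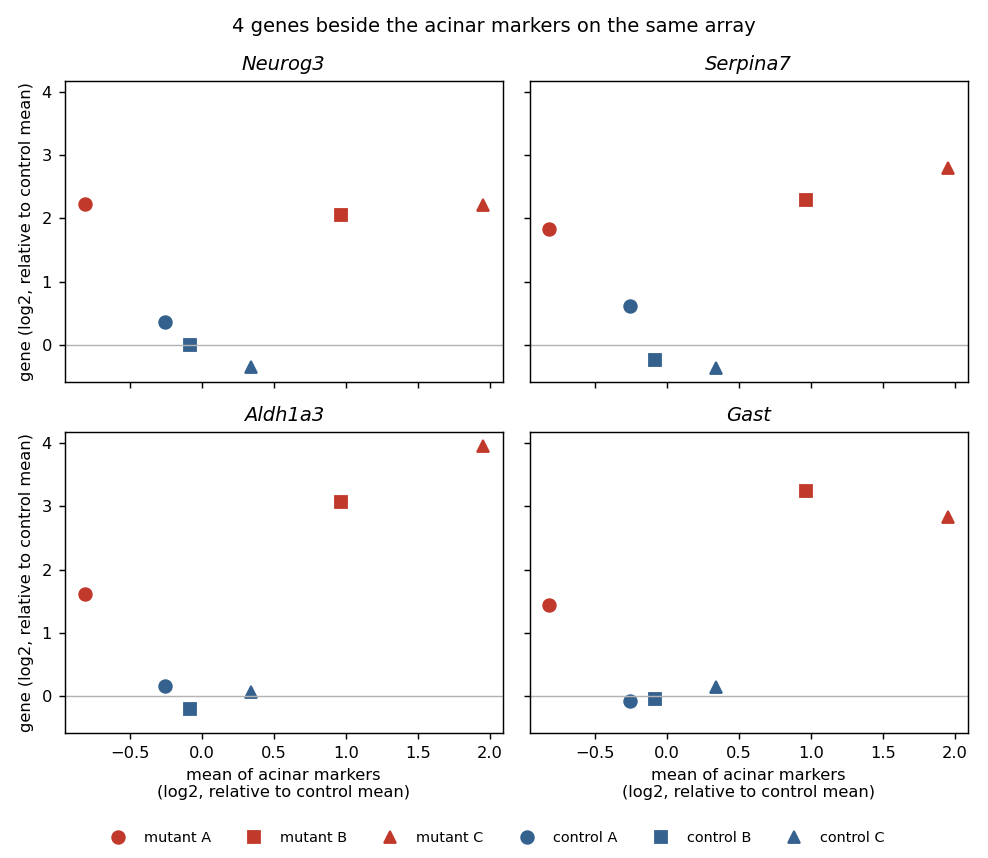
Each panel plots a gene (vertical axis, log2 relative to its control mean) against the mean of 28 acinar markers on the same array (horizontal axis, log2 relative to the control mean), with mutant arrays in red and control arrays in blue. Mutant A, at -0.82 on the horizontal axis, is above the controls in all 4 panels. Aldh1a3 and Serpina7 are highest on mutant C, where the acinar mean is 1.95.

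The levels of other cell types were read from lists of their markers. For duct cells, which carry Sox9, 1 of 20 markers rose and 0 fell (median 0.051), and the summed level was 139.0 to 177.3 in mutants against 111.4 to 131.2 in controls. Their mean relative to controls overlapped, at -0.013, 0.076 and 0.39 on mutant arrays A, B and C, against 0.21, -0.12 and -0.088 on control arrays A, B and C. Ambp rose by 0.88 (adjusted p = 0.0272), and the chloride channel gene Cftr was at 3.11 and not called (adjusted p = 0.0827), though a slide block gave 0.0154. Cftr was well above background on 2 of the 3 control arrays, so its difference is not exact. No gene was called in the mesenchyme list (14 tested, 13 positive, median 0.38) or the delta cell list (7 tested, 5 positive, median 0.38). The same held for the endothelial (13 tested, median 0.13), leukocyte (14 tested, median -0.17) and Schwann cell (7 tested, median 0.15) lists. Of 9 alpha cell markers tested, 8 were positive (median 0.48) and Etv1 rose by 1.28 (adjusted p = 0.0443), a call that a slide block ended (0.0669). Of 11 beta cell markers 3 fell and 0 rose (median -0.77), and lower calls made up 1.19% of all genes tested. The urocortin gene Ucn3 fell by 1.25 (adjusted p = 0.0221) and the granule zinc transporter gene Slc30a8 by 0.97. The glucose transporter gene Slc2a2 fell by 2.01 (adjusted p = 0.0413). The 3 positive differences were those of the hormone genes Ins1 (0.25), Ins2 (0.24) and Iapp (0.25), with overlapping arrays. The part of these cell types in the values of the 9 genes was not tested, apart from the acinar covariate.

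Of 25 other factors of endocrine differentiation 21 were tested, 1 rose and 0 fell, and the median difference was 0.015. Rfx6, a factor needed downstream of Neurog3 for islet cells to form, read 2.80, 2.94 and 2.99 in mutants and 2.24, 2.21 and 2.05 in controls, and rose by 0.75 (SE 0.11, adjusted p = 0.0353). Neurod1 and Insm1, 2 direct targets of Neurog3 in the embryo, were at -0.43 (adjusted p = 0.127) and -0.39 (adjusted p = 0.114). Mutant arrays lay wholly below the controls for both. Of the 21 tested, 7 lay wholly below and 4 wholly above the controls, against 14.6% and 11.7% of all genes tested. The second probe of Neurod1 differed by -0.72, the same in sign and larger. Pax4, another target, was dim and not tested.

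Of 27 genes of the Notch pathway and of pancreatic progenitors, all were tested, 1 rose and 0 fell (median -0.049). Notch1, a receptor of the pathway, read -1.54, -0.59 and -0.93 in mutants and -2.59, -3.72 and -3.36 in controls, a rise of 2.20 (SE 0.36, adjusted p = 0.0431). Its second probe on the array differed by -0.37, so the 2 probes of Notch1 disagreed and its rise is uncertain. Hes1, the repressor through which Notch holds Neurog3 back, was at 0.49 and not called (adjusted p = 0.0811).

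Of 18 further genes reported in dedifferentiated beta cells 14 were tested, 2 rose and 0 fell (median 0.25). Slc5a10, a sodium-coupled sugar transporter gene, read 0.27, 1.13 and 0.46 in mutants and -2.83, -2.14 and -2.18 in controls, and rose 8.04-fold (difference 3.01, SE 0.29, adjusted p = 0.0151). Cd44, a surface receptor for hyaluronan, rose 2.77-fold (difference 1.47, adjusted p = 0.0413), and its 3 other probes differed by 1.38 to 1.44. Cd81, a surface tetraspanin, was at 0.66 (adjusted p = 0.105). The pluripotency genes Pou5f1 and Sox2 were dim and not tested. Nanog, another pluripotency gene, was at -0.32 and not called (adjusted p = 0.224). Its mutant arrays lay wholly below the controls, as they did for 14.6% of all genes tested.

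Of the 12 genes that process, amidate or receive gastrin and cholecystokinin, all were tested, 1 rose and 0 fell (median 0.19). Pam, which amidates the ends of both peptides, read 4.59, 4.46 and 4.92 in mutants and 2.10, 2.46 and 3.1 in controls, and rose 4.29-fold (difference 2.10, SE 0.28, adjusted p = 0.0272). The processing enzyme genes Pcsk1 (-0.49) and Pcsk2 (0.13) and the receptor genes Cckar (1.12) and Cckbr (-0.94, well above background on 2 of the 3 mutant arrays) were not called. The second probe of Pcsk2 differed by -0.33, opposite in sign. Cckar spanned -3.33 to 1.35 over the mutant arrays, lowest on mutant A and highest on mutant C, the order of the acinar markers.

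Of 15 genes of serotonin neurons, for making, moving, breaking down and sensing serotonin, with the transcription factor gene Lmx1b among them, 11 were tested, 0 rose and 1 fell (median 0.051). Maob, a monoamine oxidase, read 1.93, 1.95 and 1.76 in mutants and 3.48, 3.49 and 3.56 in controls, and fell by 1.63 (SE 0.10, adjusted p = 0.00602). Tph1 and the transporter gene Slc6a4 were dim and not tested. Of 15 tested genes of retinoic acid synthesis and response, the pathway of Aldh1a3, 0 were called (median -0.039). The retinoic acid hydroxylase gene Cyp26b1 had the largest difference, at 2.96, with -4.80, -2.50 and -0.10 in mutants and -5.25, -5.73 and -5.31 in controls (adjusted p = 0.214). The dehydrogenase genes Aldh1a1 (-0.082) and Aldh1a2 (-0.30) did not pass, so neither paralog of Aldh1a3 was called.

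Of 16 other Sox factor genes 9 were tested, 1 rose and 0 fell (median 0.24). Sox5 read -5.53, -5.13 and -4.98 in mutants and -7.46, -7.45 and -8.14 in controls (adjusted p = 0.0158). It was not well above background on any control array and entered the test through its mutant arrays alone. Its adjusted p thus rests on control values not well above background. Its rise is a bound, at least 3.76-fold, taken against the dimmest probe that passed as well above background on a given control array, or against its own signal where that was higher. Of 16 tested genes of the Serpina clade and of thyroid hormone carriage, 0 were called (median 0.24). Ttr, the thyroid hormone carrier transthyretin, was at 0.48 (adjusted p = 0.304), with overlapping arrays. Serpina3g, well above background on 2 of the 3 mutant arrays, had the largest difference, at -1.39 (adjusted p = 0.608), with control A at -0.93 far above the other arrays.

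**Figure D4:**
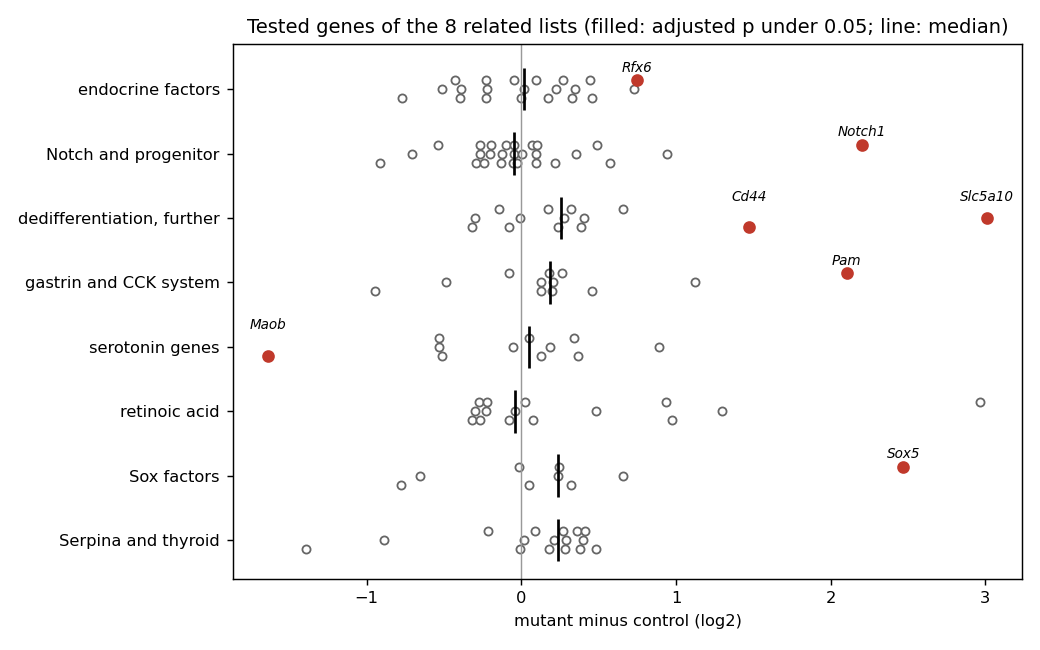
Mutant minus control difference on the log2 scale (horizontal axis) of every tested gene in the 8 lists related to the 9 genes, with filled circles for genes past the adjusted p threshold and a line at the median of each list. Called genes are labelled, and list medians lie between -0.049 and 0.25.

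The genes most like Neurog3 were sought among the other 586 called gene names, as the root mean square difference over the 6 arrays between values taken relative to each gene's own control mean. The nearest was Cartpt, which encodes the CART peptide, at 0.18 log2 units, with 0.12, 0.11 and 0.55 in mutants and -1.73, -1.78 and -2.44 in controls (difference 2.25, adjusted p = 0.0178). Cartpt was also the single called gene among 8 tested hormones and markers of enteroendocrine cells (median 0.24), where secretin (Sct, 1.83, adjusted p = 0.0910) did not pass. Also near were 5430407P10Rik (now Proser2, 0.22), Wfdc16 (0.22) and a probe named NAP114472-1 (0.24). Nearest to Serpina7 were Slfn8 (0.23), Trpm1 (0.24) and Tspan1 (0.25), which rose by 2.53, 2.35 and 2.22. With 1 array left out, the called genes of the lists passed in 0 of 6 fits (Rfx6 and Etv1) to 4 of 6 (Maob), in fits that called 12 to 410 genes in all. The likenesses to Neurog3 and Serpina7 are in level over 6 arrays of the same libraries and are given as a description.

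**Figure D5:**
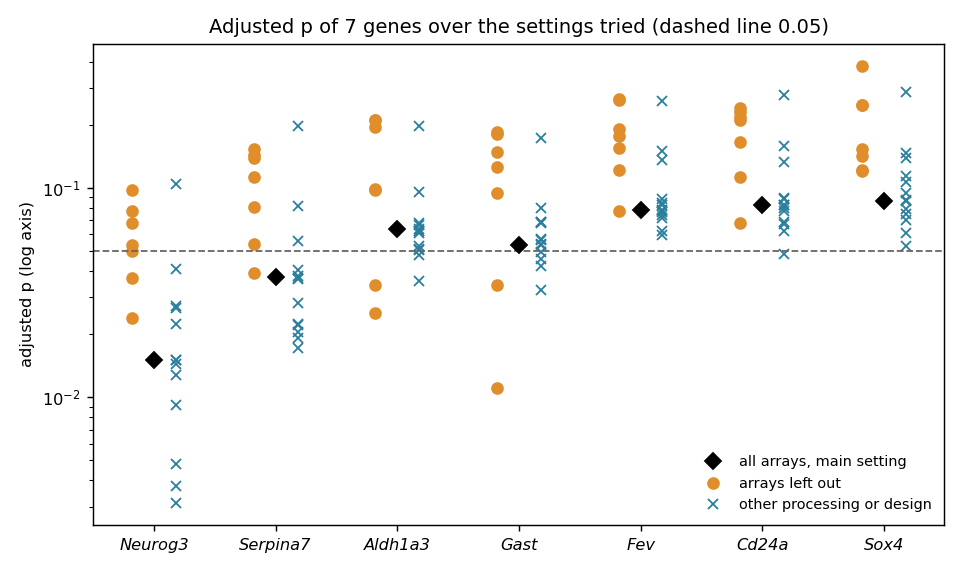
Adjusted p (vertical log axis, dashed line at 0.05) of 7 of the genes in the main fit, in fits with arrays left out, and in fits with other processing or another design. Neurog3 passed in 12 of 14 other settings and 3 of 6 fits with 1 array left out, Serpina7 in 10 and 1, and Fev and Sox4 in 0 of either.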

How the data were processed

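Islet RNA of 6 samples (150 ng each, Cy3) was hybridised to 1-colour Agilent arrays. The spot intensity values deposited by the authors come from Agilent Feature Extraction 10.7.3.1, which per the file headers subtracted background and removed trends inside an array, and arrays were not scaled to each other. Flags, the other values used, mark saturated, outlying and well-above-background spots, per the file headers. A deposited table of linear intensity values, equalized by a method not given in the sources used here, served as an alternative: its columns follow the median spot signal (rank correlation 0.999 or more), with medians of 272.8, 274.5 and 274.55 for mutants A to C and 270.15, 266.95 and 268.3 for controls A to C.

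Here log2 intensity was averaged per probe without control and outlier-flagged spots, and the 75th percentile of the array was subtracted. Of 39429 probes 28362 were tested, those well above background on every measured array of at least 1 group, and the brightest tested probe stood for each of 22776 gene names. The test was that of limma 3.58.1, two-sided with empirical Bayes, run in R 4.3.3 (files were read with package version 1.17.8 of data.table) and checked on simulated data. The p-values measure the spread between 3 pooled samples a group, whose number limits precision. Slide was also fitted as a block. No label says that letters A to C pair the groups, so they were not used as pairs. The other settings are named in the closing section. Positions are mm9, and promoter sequences are from RefSeq.

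The genes and lists were chosen with earlier results of these data known. The rule for names took the 9 genes and Nkx6-1, up to 4 called genes of each list (or the largest difference where none was called), and the 5 called genes nearest to Neurog3 and 3 nearest to Serpina7. Other genes given were named for their role, and some that the rule takes in are not reported here.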

Additional observations from a re-analysis of the deposited data

How the results depend on the processing

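The count of all called genes (587) kept within 1.5 times, at 403 to 790, under 10 settings: 5 changes of scaling or background (normexp, quantile, median, the deposited equalized values, outlier spots kept), either other filter on dim probes (none, or all 6 arrays), a slide block, the robust variance trend and the mean of a gene's probes. It was 144 with the acinar mean as a covariate and ran from 12 to 410 with 1 array left out. The array left out was mutant A (304), mutant B (22), mutant C (179), control A (410), control B (12) or control C (17). The 2 called members became 1 without a filter on dim probes and 5 under the robust variance trend, where Aldh1a3 (adjusted p = 0.0475), Gast (0.0325) and Cd24a (0.0485) joined, and 0 to 3 with 1 array left out. With the letter as a replicate block, limma called 0 genes and 0 members, while 3200 genes had an unadjusted p under 0.05. Neurog3 kept its difference of 2.17 there, at an adjusted p of 0.104. No label gives the letters as pairs. Arrays of the same letter lay on different slides, so the correlations of their deviations (-0.23, -0.19 and -0.030) cannot tell pairing from slide. Neurog3 stayed between 1.99 and 2.35 with 1 array left out. Serpina7 was also not called without a filter on dim probes (adjusted p = 0.0556). Gast was called under normexp (0.0458), with the deposited equalized values (0.0491) and with the filter on all 6 arrays (0.0421). Settings added after seeing the data were quantile scaling plus a slide block, which called 589 genes, and a fit without mutant arrays A and B, which assumes that the lone mutant varies like the controls: it called 153 genes (121 higher and 32 lower), among them Aldh1a3 (3.96, adjusted p = 0.0345) and Gast (2.84, 0.0345), and Neurog3 was at 2.21 (0.0973) and Serpina7 at 2.80 (0.112). Higher and lower calls numbered 302 and 101 without a filter on dim probes. Cck ran from -0.098 to 0.35 with 1 array left out. It changed sign with slide as a block (-0.059), the acinar covariate (-0.034), quantile normalization with the slide block (-0.054), without mutant B (-0.022) and without control B (-0.098), and Sox9 was at 0.18 without mutant arrays A and B. The cause of these changes was not tested.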
